A study of Homo sapiens with 6 samples.

Results

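The genes examined here encode the nuclear subunits of the mitochondrial respiratory chain and of ATP synthase. They were taken from the deposited mRNA table by symbol: every row that starts with NDUF (NDUFAF left out), SDHA to SDHD, UQCR, COX4 to COX8 or ATP5. The rule found 78 of the 8529 genes in the table, with 37 for complex I, 8 for complex II, 8 for complex III, 11 for complex IV and 14 for complex V. The symbol prefix also caught 4 assembly factors of complex II (SDHAF1 to SDHAF4), which are not subunits. NDUFA4, named for complex I and now placed in cytochrome c oxidase, NDUFA4L2, the read-through gene NDUFC2-KCTD14, COX7A2L and ATP5L2 were kept under their prefix. NDUFS1, NDUFV2, COX4I1, ATP5A1 and the subunits encoded by mitochondrial DNA were not analysed here.

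SW480 is a human colorectal adenocarcinoma cell line, labelled wild type. The cells were grown for 72 h on plates coated with a soft (2 kPa) or a stiff (25 kPa) hydrogel, in Leibovitz's L-15 medium with fetal bovine serum and without added CO2, and the comparison asks which transcripts differ with matrix stiffness. There were 3 libraries at each stiffness, and the labels speak of triplicates without saying whether these were separate cultures, so that p-values measure the spread between these libraries, which may be technical. Of the 8 epithelial markers in the table, 3 were high in every library, with 2611 to 3358 FPKM (fragments counted per kilobase of transcript and scaled to library size) for KRT18, 909 to 1623 FPKM for KRT19 and 64.7 to 101 FPKM for EPCAM. VIL1 read 13.95 to 23.51 FPKM and CDH1 3.64 to 8.68 FPKM. The fibroblast markers in the table summed to at most 1.11 FPKM and the leukocyte markers to at most 5.41 FPKM. The remaining epithelial markers, the intestinal factors CDX1 and CDX2 and the keratin KRT20, were listed under 1 FPKM.

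The respiratory chain passes electrons from NADH (complex I) and succinate (complex II) through ubiquinone to complex III, then through cytochrome c to complex IV, where oxygen is reduced. Complexes I, III and IV move protons out of the matrix, and complex V, the ATP synthase, lets them return through a turning ring of c subunits and makes ATP. Nuclear genes supply most of the subunits and mitochondrial DNA the rest, and the complexes are put together with the help of assembly factors. L-15 medium carries galactose as its sugar, and cells fed galactose rely more on respiration for ATP.

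Most of these genes were among the abundant transcripts of SW480 cells. A mean of at least 100 FPKM over the 6 libraries was reached by 29 of the 78 genes (37.2%), against 4.09% of all genes in the table, and another 28 lay between 10 and 100 FPKM. FPKM is scaled by transcript length, which allows levels to be set side by side between genes, but which transcripts or copies of a gene each value covers is not stated in the table. By complex, the median of the genes' mean levels was 62.4 FPKM for complex I, 11.6 for complex II, 61.9 for complex III, 252 for complex IV and 100 for complex V. The 8 genes of complex II include 4 assembly factors and 2 rows under 1 FPKM. The genes at the top were ATP5E, the epsilon subunit of the F1 head of ATP synthase, with 746 ± 172 FPKM on the soft gel and 850 ± 73.9 FPKM on the stiff gel (SD, n = 3 each), and COX8A, the widely expressed form of cytochrome oxidase subunit 8, at 533 ± 117 and 585 ± 68.1 FPKM. Complex I was led by NDUFA13, a membrane-arm subunit also named GRIM19, at 438 ± 83.7 and 449 ± 49.2 FPKM, complex III by UQCRC1, core protein 1, at 279 ± 20.0 and 280.2 ± 35.0 FPKM, and complex II by SDHB, its iron-sulfur subunit, at 77.7 ± 13.3 and 86.0 ± 6.4 FPKM. In each of these 5 genes the difference between the stiffness levels was smaller than the spread at 2 kPa, with limma adjusted p of 0.801 to 0.996.

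**Figure D1:**
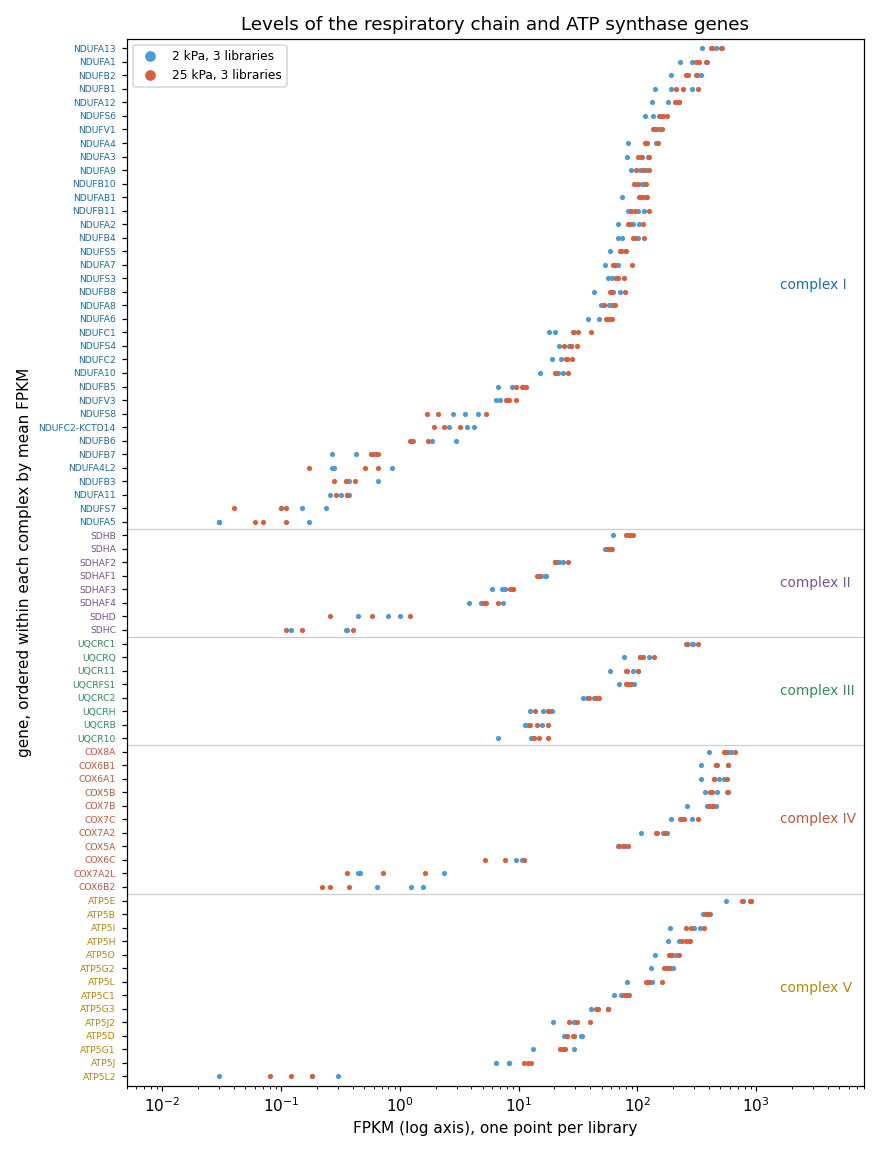
FPKM of 77 of the 78 genes on a log axis, with a point per library (blue, 2 kPa, n = 3; orange, 25 kPa, n = 3), grouped by complex I to V and ordered within each complex by mean FPKM. Levels run from a mean of 0.0783 FPKM (NDUFA5) to 798 FPKM (ATP5E), and the blue and orange points of most genes lie over each other.

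A minority of rows were near the bottom of the table. The mean was under 1 FPKM for 11 genes: NDUFA5, NDUFA11, NDUFB3, NDUFB7, NDUFA4L2, NDUFS7, SDHC, SDHD, COX6B2, COX7A2L and ATP5L2. NDUFS7, which carries the last iron-sulfur cluster before ubiquinone in complex I, was listed at 0.24, 0.15 and 0.1 FPKM at 2 kPa and at 0.11, 0.1 and 0.04 FPKM at 25 kPa. SDHC and SDHD, the membrane anchors of complex II, were at 0.11 to 0.4 FPKM and 0.26 to 1.21 FPKM, against 53.7 to 61.3 FPKM for SDHA and 62.6 to 92.4 FPKM for SDHB, the catalytic subunits they hold. Low rows were not limited to these genes: the glycolysis gene GAPDH was listed at 0.32 to 3.35 FPKM and CYC1 at 0.76 to 2.01 FPKM. Which transcripts each row covers is not stated, so a row near 0 may not give the full level of its gene.

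No gene of the respiratory chain or ATP synthase passed the test between 25 kPa and 2 kPa. By limma on log2(FPKM + 1) over all genes, 0 of the 78 had an adjusted p under 0.05, the lowest being 0.211 for COX6B2, against 0.117% of all genes. At an unadjusted p under 0.05, 3 of the 78 were higher at 25 kPa, against 6.96% of all genes, and 1 was lower, against 3.19%. The groups did not overlap for 5 genes that were higher at 25 kPa (11.2% of all genes) and for 2 that were lower (4.78% of all genes). The fold change pointed to higher values at 25 kPa for 58 of the 78 genes (74.4%, against 59.6% of all genes), and its median was 0.11 on the log2 scale, against 0.05 over all genes. Rescaling gave 37 higher genes (47.4%, equal library sums), 42 (53.8%, quantile normalisation) or 49 (62.8%, medians centred). Over all genes these shares were 45.6%, 50.7% and 49.1%, and they also stand beside the rescaled counts by complex below. Without the second library at 2 kPa, 34 genes were higher (43.6%, against 65.7% of all genes), with a median of −0.01 (0.08 over all genes).

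Libraries of the same stiffness stood further apart in these genes than the means of the groups. The second library at 2 kPa was the lowest of the 6 for 55 of the 78 genes (70.5%, against 17.6% of all genes), with a median log2 deviation of −0.34 from the 6-library mean. The second library at 25 kPa was the highest of the 6 for 42 genes (53.8%, against 17.6% of all genes), with a median deviation of 0.20. Both held at once for 37 genes (47.4%, against 6.46% of all genes). The third library at 2 kPa was also high, with a median deviation of 0.14.

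**Figure D2:**
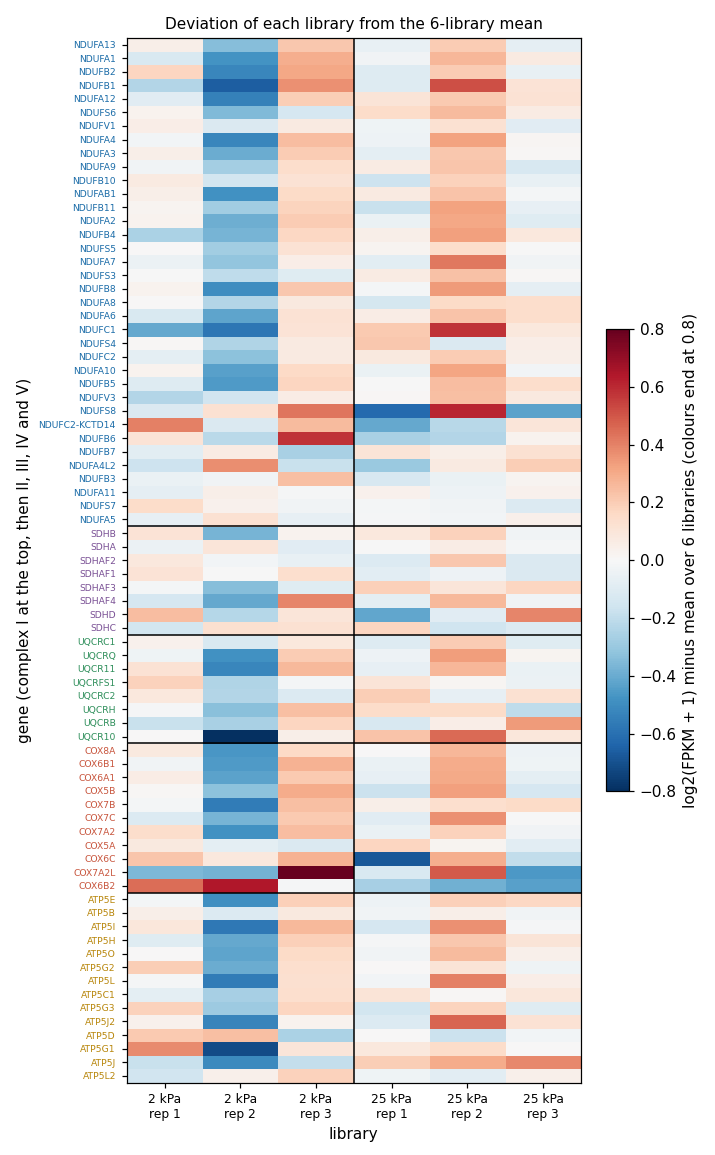
Deviation of each library from the 6-library mean on the log2(FPKM + 1) scale, for 77 of the 78 genes (rows, ordered as in the plot of levels) and the 6 libraries (columns; rep, replicate; black vertical line between 2 kPa and 25 kPa). Blue fills most of the column of 2 kPa replicate 2, the lowest library for 55 of the 78 genes, and red most of 25 kPa replicate 2, the highest for 42.

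The summed FPKM of the 78 genes was 9203, 6944 and 10365 at 2 kPa and 8903, 10763 and 9166 at 25 kPa. The soft libraries thus held both the lowest sum and the second highest, and the groups overlapped. The group means were 8837 ± 1739 and 9611 ± 1006 FPKM (SD, n = 3 each), a ratio of 1.09. As a share of all FPKM in the table the sums came to 3.95%, 3.45% and 4.4% at 2 kPa and to 3.84%, 4.09% and 3.89% at 25 kPa. The mean share was 3.93% ± 0.471 (SD, n = 3) on the soft gel and 3.94% ± 0.132 (SD, n = 3) on the stiff gel, a difference well within the spread of the soft libraries.

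The low values of 2 kPa replicate 2 ran through the complexes. All 8 genes of complex III were lowest in 2 kPa replicate 2, as were 12 of 14 in complex V, 25 of 37 in complex I, 7 of 11 in complex IV and 3 of 8 in complex II. The same library was low in other abundant gene sets. Of the mitochondrial ribosomal protein genes (MRPL and MRPS), 46 of 70 were lowest in the same library, of the cytosolic ribosomal protein genes (RPL and RPS) 62 of 83, and of the proteasome subunit genes (PSMA to PSMD) 23 of 33. The citric acid cycle list, whose enzymes feed electrons to the chain, had 6 of 15 lowest there, and the glycolysis list 5 of 17.

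**Figure D3:**
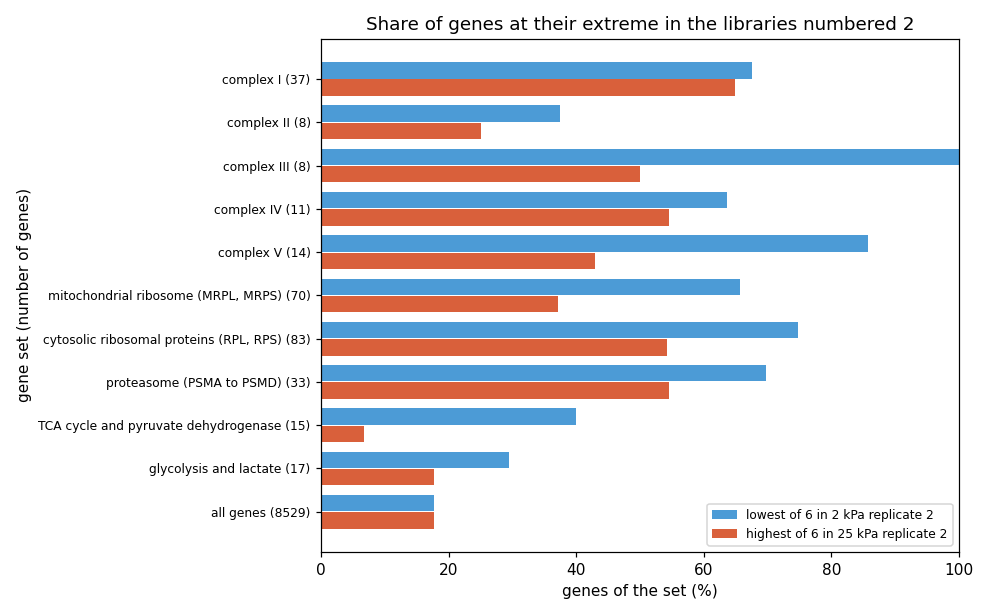
Percentage of the genes of each set whose lowest value of 6 lay in 2 kPa replicate 2 (blue) and whose highest lay in 25 kPa replicate 2 (orange), with the number of genes in brackets. Complexes I, III, IV and V, both ribosomes and the proteasome exceed 60% for the blue bar, while all genes stand at 17.6% for both bars.

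Values that moved with this library pattern were transcript length and the library sum. The length of a gene was taken as the median over its annotated protein-coding transcripts, which need not be the length of the transcript made in these cells. By this measure the median was 693 nt for the 78 genes, against 1753 nt over all genes with a length. Among genes with a mean of at least 10 FPKM outside the 78, 50.1% of the 792 with transcripts under 1000 nt were lowest in 2 kPa replicate 2, against 26.1% of the 1373 with longer transcripts. Within the 78, the same share was 91.7% of 48 genes under 1000 nt and 77.8% of 9 genes at 1000 nt or more. The same library had the lowest FPKM sum of the table (201030) and 25 kPa replicate 2 the highest (263028). The median FPKM over all genes was, however, highest in 2 kPa replicate 2 (2.83), and 26.8% of all genes had their highest value there. With the length trend removed from each library, 59 of the 78 genes were higher at 25 kPa (75.6%, against 60.4% of all genes). Their median log2 fold change was then 0.10. As deposited, 58 were higher, with a median of 0.11. That fit compares the stiffness levels and not the libraries within them. The part of transcript length, of the library sum or of the cells themselves in the pattern was not tested.

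Complex I takes electrons from NADH. Its genes were higher at 25 kPa in 28 of 37 cases as deposited (17 of 37 after rescaling to equal sums, 24 after quantile normalisation or median centring), the median log2 fold change being 0.11 as deposited and −0.01 after rescaling, and 0 were called. Of the 5 genes for core subunits, which carry the flavin and the iron-sulfur clusters, NDUFV1, the NADH-binding subunit, had 152, 135 and 154 FPKM at 2 kPa and 143, 160 and 138 FPKM at 25 kPa. These groups overlapped fully, and the 95% interval of its log2 fold change ran from −0.27 to 0.27. NDUFS3, a core subunit of the peripheral arm, had 65.3, 56.7 and 61.1 FPKM at 2 kPa and 68.6, 77.1 and 65.8 FPKM at 25 kPa. Its groups did not overlap, but the lowest stiff and the highest soft library were less than 1 FPKM apart (log2 fold change 0.20, SE 0.11, 0.08 after rescaling to equal sums, limma adjusted p = 0.59). NDUFS8, a core subunit with iron-sulfur clusters, ranged from 1.69 to 5.31 FPKM within the stiff group alone.

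Of the 29 accessory subunits of complex I, 26 were higher at 25 kPa as deposited, 15 after rescaling to equal sums, 22 after quantile normalisation or median centring and 12 without both libraries numbered 2. NDUFC1, a small membrane-arm subunit, had 20.2, 17.9 and 29.3 FPKM at 2 kPa and 31.5, 41.0 and 28.8 FPKM at 25 kPa. The third soft library exceeded the third stiff library, so the groups overlapped (log2 fold change 0.59, SE 0.20, limma unadjusted p = 0.017, adjusted p = 0.356), and the log2 fold change was 0.30 without both libraries numbered 2. NDUFC1 lies beside NAA15 on the opposite strand and shares bases with it in the RefSeq annotation. NDUFS6, a zinc-binding subunit of the peripheral arm, had 152, 117 and 136 FPKM at 2 kPa and 165, 178 and 156 FPKM at 25 kPa. All 3 stiff libraries were above the soft ones (log2 fold change 0.31, SE 0.13, limma unadjusted p = 0.0456, adjusted p = 0.476), and without both libraries numbered 2 the log2 fold change was 0.16. NDUFS6 overlaps MRPL36 in the RefSeq annotation. The lowest fold change of complex I was that of the read-through gene NDUFC2-KCTD14, at 4.18, 2.61 and 3.66 FPKM on the soft gel and 1.95, 2.35 and 3.18 FPKM on the stiff gel, with overlapping groups (log2 fold change −0.36, SE 0.24, limma adjusted p = 0.684), and its reads may be shared with NDUFC2. NDUFA4 read 114 ± 29.8 and 129 ± 18.1 FPKM (SD, n = 3), and its paralog NDUFA4L2, known as a hypoxia-induced gene, was listed at 0.17 to 0.86 FPKM.

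Complex II oxidises succinate and belongs to the citric acid cycle as well. Of its genes, 4 were higher and 4 lower at 25 kPa, and their median log2 fold change was 0.01 as deposited and −0.09 to −0.04 after the 3 rescalings. SDHA, the flavoprotein that oxidises succinate, read 55.4, 61.3 and 53.7 FPKM at 2 kPa and 57.0, 59.8 and 56.5 FPKM at 25 kPa, with its highest value in 2 kPa replicate 2, the library where most other genes of the chain were lowest. The assembly factors SDHAF1 and SDHAF3, which help to mature the iron-sulfur subunit, were the 2 genes of complex II whose groups did not overlap, in opposite directions. SDHAF1 had 16.6, 15.3 and 17.0 FPKM at 2 kPa and 14.4, 14.9 and 14.1 FPKM at 25 kPa (log2 fold change −0.16, SE 0.12, −0.28 after rescaling to equal sums and −0.03 with the GC content trend removed, limma adjusted p = 0.718). SDHAF3 had 7.69, 5.93 and 7.2 FPKM at 2 kPa and 9.01, 8.39 and 8.91 FPKM at 25 kPa (log2 fold change 0.31, SE 0.16, 0.20 after rescaling to equal sums, limma adjusted p = 0.563).

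Complex III passes electrons from ubiquinol to cytochrome c. All 8 of its genes had the higher mean at 25 kPa as deposited, but 4 were higher at 25 kPa after rescaling to equal sums, 5 after quantile normalisation, 6 after median centring and 4 without 2 kPa replicate 2. The median log2 fold change was 0.13, and −0.02 without that library. UQCRFS1, the Rieske iron-sulfur protein, read 93.6, 69.5 and 81.5 FPKM at 2 kPa and 88.5, 83.3 and 79.6 FPKM at 25 kPa. UQCRC2, core protein 2, read 43.4, 34.7 and 37.9 FPKM and 47.0, 39.0 and 44.6 FPKM, with overlapping groups in both cases. UQCR10, a small subunit, was the only gene of the complex without overlap, at 12.7, 6.72 and 13.0 FPKM on the soft gel and 14.9, 17.6 and 13.5 FPKM on the stiff gel. Its log2 fold change was 0.51 (SE 0.24, limma adjusted p = 0.518), 0.23 without the soft library at 6.72 FPKM and 0.13 without both libraries numbered 2.

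Complex IV reduces oxygen. Of its 11 genes, 8 were higher at 25 kPa as deposited, 4 after rescaling to equal sums, 3 after quantile normalisation, 7 after median centring, 2 without 2 kPa replicate 2 and 1 without both libraries numbered 2. The median log2 fold change was 0.07, and −0.05 after rescaling and −0.04 after quantile normalisation. The abundant rows followed the libraries: COX6A1, the widely expressed form of subunit 6A, read 482, 343 and 536 FPKM at 2 kPa and 442, 571 and 438 FPKM at 25 kPa, and COX6B1, that of subunit 6B, read 465, 345 and 574 FPKM and 456, 581 and 462 FPKM. In both genes the highest soft library lay above 2 of the 3 stiff libraries. COX6B2, the form of subunit 6B known from testis, had the lowest p of all 78 genes, at 1.25, 1.57 and 0.64 FPKM at 2 kPa and 0.37, 0.26 and 0.22 FPKM at 25 kPa. The groups did not overlap (log2 fold change −0.72, SE 0.18, limma unadjusted p = 0.00324, adjusted p = 0.211), the log2 fold change was −1.65 with a pseudocount of 0.1 and −1.93 with 0.01, and 2 kPa replicate 2, low for its neighbours in the chain, was here the highest library. COX6B2 made up 0.277% ± 0.171 (SD, n = 3) of the summed FPKM of the 2 forms of subunit 6B on the soft gel and 0.0578% ± 0.0202 (SD, n = 3) on the stiff gel (two-sided exact permutation p = 0.1, the smallest that 3 libraries against 3 can give). The other paralogs were COX7A2, at 150.1 ± 38.0 and 154 ± 14.5 FPKM, and COX7A2L, a supercomplex factor related to it, which ranged from 0.36 to 2.34 FPKM. COX7B had the highest fold change of the complex, at 370 ± 99.0 and 421 ± 16.8 FPKM (log2 fold change 0.22, limma adjusted p = 0.798).

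Complex V makes ATP, with catalytic beta subunits in its F1 head, a central stalk, a c ring and a peripheral stalk that holds the head still. ATP5B, the beta subunit, read 398, 358 and 408 FPKM at 2 kPa and 378, 398 and 378 FPKM at 25 kPa, with a 95% interval of its log2 fold change from −0.32 to 0.29. ATP5C1, the gamma subunit of the stalk that turns, read 72.8, 63.9 and 84.4 FPKM and 82.7, 77.4 and 81.8 FPKM. ATP5D, the delta subunit, had the lowest fold change of the complex, at 30.5 ± 5.67 and 27.6 ± 1.87 FPKM (SD, n = 3; log2 fold change −0.13, limma adjusted p = 0.856). Of the 14 genes, 10 were higher at 25 kPa as deposited, 9 after rescaling to equal sums or median centring, 7 after quantile normalisation and 4 without both libraries numbered 2, and the median log2 fold change was 0.15, 0.03 after rescaling and −0.03 without those libraries.

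ATP5J, which encodes coupling factor 6 of the peripheral stalk, had the lowest p of the genes that were higher on the stiff gel. It had 8.3, 6.42 and 8.22 FPKM at 2 kPa and 11.1, 11.9 and 12.8 FPKM at 25 kPa, so every stiff library was above every soft one. The log2 fold change was 0.59 (SE 0.15, limma unadjusted p = 0.00422, adjusted p = 0.227). It was 0.48 without both libraries numbered 2, and the unadjusted p was under 0.05 in all 17 alternative settings, with fold changes from 0.47 to 0.65 on the log2 scale, while the adjusted p was under 0.05 in 0 of them. Of the other stalk subunits, ATP5H (subunit d) had a log2 fold change of 0.21 and ATP5O (the oligomycin sensitivity protein) of 0.18, both with overlapping groups. The difference between ATP5J and these genes was not tested. ATP5J lies head to head with GABPA, an ETS factor that is known to act on promoters of respiratory genes, and overlaps it in the RefSeq annotation, so reads counted without strand could be shared. GABPA itself was listed at 2.76, 2.89 and 1.77 FPKM at 2 kPa and 2.91, 2.49 and 3.36 FPKM at 25 kPa (log2 fold change 0.18, limma adjusted p = 0.867).

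**Figure D4:**
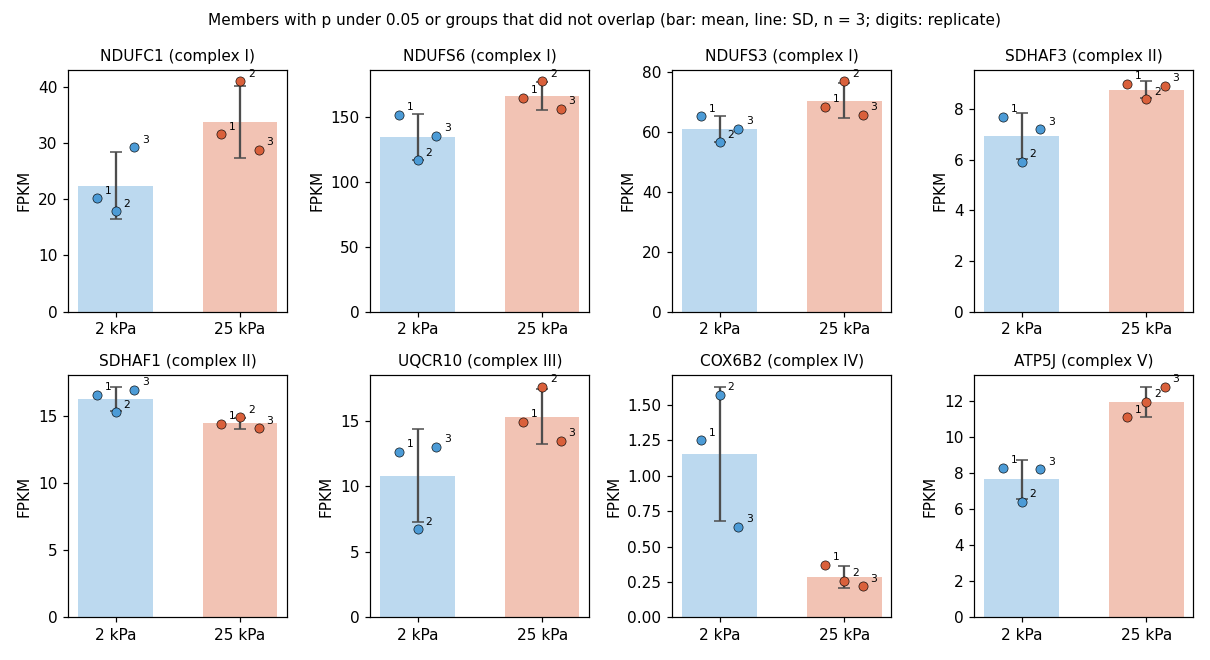
FPKM of the 8 genes with an unadjusted p under 0.05 or with groups that did not overlap (bars, mean; lines, SD; n = 3 libraries per stiffness; digits, replicate number). All 3 stiff libraries stand above the soft ones in NDUFS6, NDUFS3, SDHAF3, UQCR10 and ATP5J, all 3 stand below in SDHAF1 and COX6B2, and the groups overlap in NDUFC1.

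The c ring allows a comparison within a single protein, since ATP5G1, ATP5G2 and ATP5G3 encode the same mature subunit c behind different import sequences. ATP5G2 gave 70.4% ± 0.565 (SD, n = 3) of their summed FPKM on the soft gel and 70.8% ± 1.05 (SD, n = 3) on the stiff gel (two-sided exact permutation p = 0.5). ATP5G3 gave 20.9% ± 1.01 and 19.7% ± 1.29 (exact permutation p = 0.3) and ATP5G1 8.71% ± 1.57 and 9.44% ± 0.273 (exact permutation p = 0.6). The order of the 3 genes was the same in all 6 libraries, while the level of ATP5G1 ranged from 13.1 to 28.96 FPKM and that of ATP5G2 from 131 to 197 FPKM.

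Without both libraries numbered 2, an alternative chosen after these values were seen, the direction of the set turned. Then 26 of 78 genes were higher at 25 kPa (33.3%, against 65.2% of all genes), the median log2 fold change was −0.07 (0.10 over all genes), and 8 genes had an unadjusted p under 0.05 toward lower values against 1 toward higher (11.5% of the 78, against 17.9% of all genes in either direction). The 8 were NDUFB2 and NDUFS8 of complex I, UQCR11 of complex III, COX5B, COX6B2, COX6C and COX7A2 of complex IV and ATP5G3 of complex V, and the 1 was ATP5J. Their limma adjusted p were 0.182 to 0.274, with 2 libraries left in each group. ATP5J and COX6B2 were under an unadjusted p of 0.05 in the same direction with and without these libraries.

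**Figure D5:**
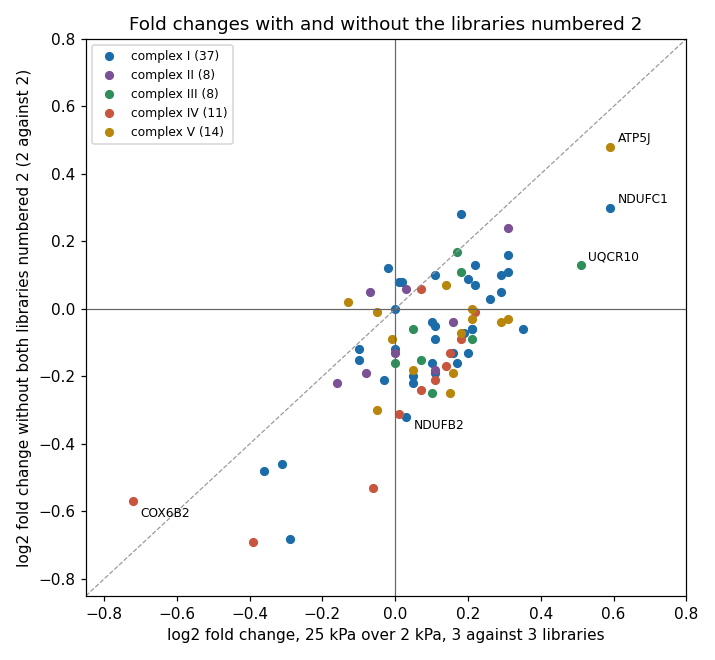
Log2 fold change (25 kPa over 2 kPa, log2(FPKM + 1) scale) of each of the 78 genes with all libraries (horizontal, 3 against 3) and without both libraries numbered 2 (vertical, 2 against 2), coloured by complex; the dashed line marks equal values. Most points lie right of 0 and below the dashed line, and 26 of the 78 lie above 0 on the vertical axis, with ATP5J the highest.

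The promoters of these genes are known to share sites for NRF1, for ETS factors such as GABPA and for YY1. RefSeq promoter windows of GRCh38.p14, from 250 bases before to 50 after a start, were found for 66 of the 78 genes. The cores searched on both strands were GCGCATGC for NRF1, CCGGAAGT for ETS factors and AAGATGGC for YY1, and an NRF1 match on a strand can overlap one on the other. The NRF1 core was in 20.5% of the 78 windows of these genes, against 3.05% of all 35116 windows and 4.87% of the windows of genes in the table. The ETS core was in 12.8% (4.14% and 8.03%) and the YY1 core in 15.4% (2.89% and 5.02%). In 10 of the 66 genes (15.2%) the YY1 core stood 11 to 39 bases after the start on the coding strand. A YY1 core after the start on that strand was found in 430 of all 27305 genes with a window (1.57%). The 28 genes with any of the 3 cores had a median log2 fold change of 0.11, and the 38 without a core had 0.12. Higher at 25 kPa were 24 of the 28 and 28 of the 38 (59.6% of all genes). Lowest in 2 kPa replicate 2 were 24 of the 28 (85.7%) and 24 of the 38 (63.2%), against 17.6% of all genes. The difference between genes with and without a core was not tested.

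In each complex, the stretch before the start of the gene with the highest mean FPKM whose core lay outside every annotated GENCODE exon is given below to show how these cores sit in the sequence. Each runs 5′ to 3′ on the strand of the gene, in GRCh38.p14, with matched cores in capitals.
NDUFB4 (chr3:120596086-120596308, strand +): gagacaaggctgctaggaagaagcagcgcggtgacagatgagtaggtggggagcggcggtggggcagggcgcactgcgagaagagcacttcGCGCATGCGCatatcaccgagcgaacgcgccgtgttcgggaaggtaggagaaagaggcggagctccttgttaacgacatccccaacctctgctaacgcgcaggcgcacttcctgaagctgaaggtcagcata
SDHB (chr1:17054171-17054282, strand -): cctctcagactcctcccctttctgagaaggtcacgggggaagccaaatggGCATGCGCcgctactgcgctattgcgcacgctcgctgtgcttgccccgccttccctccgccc
UQCR11 (chr19:1605491-1605712, strand -): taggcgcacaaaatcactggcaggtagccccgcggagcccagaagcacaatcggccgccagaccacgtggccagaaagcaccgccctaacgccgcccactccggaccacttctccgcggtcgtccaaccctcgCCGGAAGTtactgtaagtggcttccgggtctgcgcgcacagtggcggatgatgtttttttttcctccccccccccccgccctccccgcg
COX6A1 (chr12:120437863-120438089, strand +): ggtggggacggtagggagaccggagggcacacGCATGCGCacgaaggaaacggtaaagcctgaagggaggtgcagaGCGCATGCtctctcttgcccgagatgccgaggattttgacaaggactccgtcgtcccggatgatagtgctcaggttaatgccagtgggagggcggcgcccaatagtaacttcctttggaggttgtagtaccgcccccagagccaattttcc
ATP5H (chr17:75046986-75047183, strand -): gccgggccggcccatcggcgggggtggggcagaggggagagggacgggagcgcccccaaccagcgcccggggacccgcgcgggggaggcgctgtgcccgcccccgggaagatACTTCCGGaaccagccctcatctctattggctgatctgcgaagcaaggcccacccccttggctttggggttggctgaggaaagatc

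In NDUFB4 the 2 matches, on opposite strands, overlap in a single palindrome, and COX6A1 holds 2 separate matches on opposite strands, which begin at −218 and −174 from the start. SDHB carries an NRF1 match at −200, and UQCR11 and ATP5H carry an ETS match at −117 and −102. NDUFB4 read 74.8, 68.8 and 100.1 FPKM at 2 kPa and 92.2, 113 and 94.8 FPKM at 25 kPa, while ATP5H read 224, 180 and 273 FPKM and 238, 278 and 257 FPKM, with overlapping groups in both.

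No factor on the list of regulators of these promoters and of mitochondrial DNA passed the test. Of the 21 names, 10 were in the table, 6 higher and 4 lower at 25 kPa, with 0 at an unadjusted p under 0.05 (10.2% of all genes). YY1 read 21.6 ± 3.39 FPKM at 2 kPa and 24.7 ± 3.46 FPKM at 25 kPa (SD, n = 3), and ESRRA, an orphan nuclear receptor of mitochondrial genes, 9.31 ± 0.526 and 7.55 ± 1.32 FPKM. PPARGC1A, NRF1 and TFAM were not analysed here. The assembly factor list had 42 of 54 names in the table, 31 higher (73.8%, against 59.6% of all genes) and 11 lower, with 18 higher after rescaling to equal sums. Of the 42, 0 were called, and 2 had an unadjusted p under 0.05, both higher (4.76%, against 6.96% of all genes). These were COX17, the copper chaperone of cytochrome oxidase, at 70.3 ± 13.6 and 96.8 ± 11.6 FPKM (log2 fold change 0.47, 0.23 without both libraries numbered 2, limma adjusted p = 0.356), and UQCC2, an assembly factor of complex III, at 26.3 ± 6.04 and 35.1 ± 2.74 FPKM (log2 fold change 0.42, 0.22 without both libraries numbered 2, limma adjusted p = 0.453).

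Of a list of subunits outside these symbol prefixes, electron carriers, ADP/ATP and phosphate carriers and outer membrane channels, 12 of 18 names were in the table, 7 higher and 5 lower at 25 kPa (4 higher after any of the 3 rescalings). CYCS, cytochrome c itself, had 27.7, 23.9 and 26.5 FPKM on the soft gel and 35.8, 30.5 and 35.0 FPKM on the stiff gel, without overlap (log2 fold change 0.36, SE 0.12, 0.24 after rescaling to equal sums, limma unadjusted p = 0.0136, adjusted p = 0.337). ETFB, a subunit of the flavoprotein that brings electrons from fatty acid oxidation, read 5.38, 10.7 and 9.46 FPKM at 2 kPa and 3.65, 4.82 and 3.55 FPKM at 25 kPa (log2 fold change −0.89, SE 0.25, limma unadjusted p = 0.007, adjusted p = 0.262), whereas its partner ETFA read 39.0 ± 6.45 and 42.7 ± 3.58 FPKM. Of the citric acid cycle and pyruvate dehydrogenase list, 15 of 21 names were in the table and 10 were higher at 25 kPa (66.7%, against 59.6% of all genes). The count was 8 after any of the 3 rescalings and 14 without both libraries numbered 2, where 65.2% of all genes were higher. At an unadjusted p under 0.05, 3 of the 15 were higher (20.0%, against 6.96% of all genes), all without overlap (11.2% of all genes). SUCLG2, a subunit of succinyl-CoA ligase, read 15.9, 14.7 and 17.5 FPKM at 2 kPa and 21.0, 21.2 and 24.1 FPKM at 25 kPa (log2 fold change 0.44, limma adjusted p = 0.259). DLD, the dihydrolipoamide dehydrogenase shared by pyruvate and oxoglutarate dehydrogenase, had a log2 fold change of 0.45 (adjusted p = 0.341 by limma) and FH, fumarase, of 0.32 (0.20 after rescaling to equal sums, adjusted p = 0.472 by limma).

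The glycolysis and lactate list had 17 of 26 names in the table, 11 higher and 6 lower (5 higher after rescaling to equal sums). SLC2A3, a glucose transporter, read 282, 438 and 353 FPKM at 2 kPa and 470, 574 and 586 FPKM at 25 kPa (log2 fold change 0.62, 0.40 after quantile normalisation, limma adjusted p = 0.324), and SLC16A3, which exports lactate, read 17.1 ± 2.12 and 12.7 ± 1.39 FPKM (log2 fold change −0.40, −0.26 with the GC content trend removed, limma adjusted p = 0.4). Of the mitochondrial antioxidant list, 7 of 10 names were in the table, 3 of them higher at 25 kPa. GPX4, which removes lipid peroxides, read 11.4, 10.7 and 12.3 FPKM at 2 kPa and 6.82, 6.69 and 8.27 FPKM at 25 kPa (log2 fold change −0.60, SE 0.15, limma unadjusted p = 0.00314, adjusted p = 0.211). In these lists too, 0 genes had an adjusted p under 0.05.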

How the data were processed

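RNA sequencing of SW480 cells was measured in 6 libraries, 3 at 2 kPa and 3 at 25 kPa, grouped by the deposited sample titles. The authors assessed read quality, predicted coding potential and deposited FPKM per gene symbol and library for 8529 genes, without pooling. The submitters' processing notes name HISAT, StringTie, Bowtie2, RSEM and hg18 without versions. The authors used DESeq2, which models counts and was not applied to FPKM. FPKM carry no read numbers, so depth is unknown and precision rests on 3 libraries per group. The lowest FPKM was 0.01, and 11 symbols written as dates were tested without a name.

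Values were converted to log2(FPKM + 1), which understates changes of low genes, and 25 kPa was compared with 2 kPa by limma 3.58.1 in R 4.3.3 (lmFit, eBayes with a trend, two-sided, Benjamini-Hochberg over all genes, threshold 0.05), with Python 3.11.15, pandas 2.3.3, numpy 2.4.6, scipy 1.17.1 and matplotlib 3.10.9. The fit was tested on simulated data. Shares were compared by exact permutation. Transcript length and GC content of a gene were medians over its protein-coding transcripts in GENCODE (GRCh38), not those of the transcript expressed. Promoters came from RefSeq (GRCh38.p14), and no coordinates were carried over from hg18. Members and lists were chosen with earlier results of these data known, and no test was run over a list. Named singly were genes with an unadjusted p under 0.05 or without overlap, the highest gene and the largest rise and fall of each complex, paralog pairs and catalytic subunits. A gene of complex I is counted but not reported here. Genes whose groups or fold changes are given beyond this rule were chosen after their values were seen. Alternatives tried were other pseudocounts (0.1, 0.01), a filter at a mean FPKM of 1, 3 rescalings (equal sums, quantile, median), no trend, a replicate block, length and GC trends removed with a lowess span of 0.3, and libraries left out. Deviations of libraries with the same number correlated across all genes by 0.115, −0.267 and −0.125. Each value compares a single library per stiffness, so whether the numbers pair the samples cannot be decided from them.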

Additional observations from a re-analysis of the deposited data

How the results depend on the processing

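The number of respiratory chain and ATP synthase genes with an adjusted p under 0.05 was 0 under every alternative, also at an adjusted p under 0.1, and 4 at an unadjusted p under 0.05. The count of these genes higher at 25 kPa (58) was 37 after rescaling to equal library sums (47.4%, against 45.6% of all genes). With the length trend removed it was 59 (75.6% against 60.4%), and with the GC trend removed 62 (79.5% against 62.4%). It was 34 to 65 with a library left out, lowest without 2 kPa replicate 2 (43.6% against 65.7%) and highest without 25 kPa replicate 1 (83.3% against 58.8%). Without both libraries numbered 2 it was 26 (33.3% against 65.2%), and the median log2 fold change was −0.07. With a library left out, that median ranged from −0.01 to 0.21. The count at an unadjusted p under 0.05 (4) was 2 after median centring (2.56% of the 78, against 9.16% of all genes), 2 to 8 with a library left out and 9 without both libraries numbered 2 (11.5% against 17.9%). It was lowest without 2 kPa replicate 2 (2.56% against 11.3%) and highest without 2 kPa replicate 3 (10.3% against 8.97%). Over all genes, 10 calls became 6 without a variance trend, 17 at a pseudocount of 0.1, 5 without both libraries numbered 2 and 3 to 11 with a library left out, lowest without 25 kPa replicate 2. The replicate block, as a paired analysis, gave 3 calls over all genes and 0 among the 78, and 3 of the 78 had an unadjusted p under 0.05. Whether the replicate numbers pair samples is not stated in the labels. The cause of these shifts was not tested.

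Of 557 values for singly named genes under alternatives, 467 kept their direction or were 0.00 and 56 had the opposite sign, all without a call in either setting. The other 34 belong to UQCRC1 and NDUFV1, at 0.00 in the reported fit, which ran from −0.16 and −0.13 (without both libraries numbered 2 and after rescaling to equal sums) to 0.11 (both with the GC trend removed). Log2 fold changes of opposite sign after rescaling to equal sums were −0.08 for ATP5G2, −0.02 for COX6A1, −0.06 for COX7A2, −0.07 for NDUFA13, −0.10 for SDHA, −0.08 for UQCRFS1. After quantile normalisation they were −0.04 for ATP5E, −0.08 for ATP5G2, −0.03 for COX6A1, −0.03 for COX7A2, −0.08 for COX8A, −0.09 for NDUFA13, −0.07 for SDHA and −0.06 for UQCRFS1, and after median centring −0.01 for ATP5G2 and −0.03 for SDHA. With the GC trend removed they were 0.01 for ATP5D, 0.11 for NDUFA4L2, 0.04 for NDUFS7 and −0.01 for UQCRFS1. Without both libraries numbered 2 they were 0.02 for ATP5D, −0.03 for ATP5E, −0.19 for ATP5G1, −0.18 for ATP5G2, −0.21 for COX6A1, −0.17 for COX6B1, −0.24 for COX7A2, −0.01 for COX7B, −0.13 for COX8A, −0.20 for NDUFA13, −0.13 for NDUFA4, 0.12 for NDUFA4L2, −0.04 for SDHB and −0.06 for UQCRFS1.

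Leaving out single libraries, the values spanned 0 for ATP5B (−0.07 to 0.03), ATP5G1 (−0.16 to 0.39), ATP5G2 (−0.14 to 0.16), ATP5G3 (−0.20 to 0.03), COX6A1 (−0.08 to 0.24), COX6B1 (−0.06 to 0.31), COX7A2 (−0.16 to 0.21), COX7A2L (−0.32 to 0.34), COX8A (−0.04 to 0.27), NDUFA13 (−0.11 to 0.17), NDUFA4 (−0.01 to 0.37), NDUFA4L2 (−0.12 to 0.16), NDUFV1 (−0.06 to 0.04), SDHA (−0.01 to 0.08), UQCRC1 (−0.10 to 0.06) and UQCRFS1 (−0.06 to 0.15).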
